A study of Mus musculus with 9 samples.

Results

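Acyl-CoA thioesterases split a fatty acyl-CoA into a free fatty acid and coenzyme A, and so reverse the step that the acyl-CoA synthetases catalyse. The family holds enzymes of separate origin that sit in the cytosol, the mitochondria and the peroxisomes. In liver, the type I genes (*Acot1* to *Acot6*, enzymes with an alpha/beta-hydrolase fold) are known as targets of PPAR-alpha, the nuclear receptor that is activated by fatty acids. The type II genes encode enzymes with a hotdog fold. The 10 family genes described here were taken by symbol out of 19329 gene symbols in the tables, and the rule used no measured value. By the usual main site of the mouse enzyme, 4 members are cytosolic (*Acot1*, *Acot7*, *Acot11* and *Acot12*), 3 are mitochondrial (*Acot2*, *Acot9* and *Acot13*) and 3 are peroxisomal (*Acot3*, *Acot4* and *Acot8*). *Acot7* and *Acot11* also have described mitochondrial forms and *Acot13* a cytosolic one. These sites are background knowledge, since RNA and not protein was measured.

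RNA was sequenced from the livers of 9 C57BL/6J mice, an inbred strain, all 11 weeks of age. The Chow group held 5 mice kept on standard chow, and the HSD group held 4 mice that received a high-sucrose diet for 3 weeks from the age of 8 weeks. Each liver came from its own animal, the sources used here do not give the sex of the animals, and no genetic change was part of the design. The comparison of the diets asks which genes differed in this diet model of fatty liver.

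The libraries held 12769668 to 25913869 estimated counts, with a median of 17791258 on Chow and 20282685 on HSD. Hepatocyte markers were abundant in every liver, *Alb* ranging from 44400 to 103000 CPM (estimated counts scaled to a common library size, with TMM factors). The 5 adipocyte markers summed to at most 0.273 CPM in any liver, with *Retn* and *Lep* at 0 throughout. Of the 6 pancreas and gut markers, *Prss2*, *Cela3b*, *Cpa1* and *Muc2* were listed at 0 in all livers and *Vil1* reached at most 0.476 CPM, whereas *Fabp2*, an intestinal fatty acid binding protein, stood at 29.4 to 41.8 CPM on Chow and 56.8 to 85.1 CPM on HSD (log2 fold change 0.95, edgeR adjusted p = 0.00199). The library numbers in the labels fall into 2 series whose meaning the labels do not give. The second series holds Chow 5, HSD 3 and HSD 4, and the first holds 4 Chow and 2 HSD livers. Chow 1 stood apart by *Saa2*, an acute phase gene, at 10100 CPM whereas Chow 2 to Chow 5 held 4.45 to 39.5 CPM and the HSD livers 3.69 to 7.07 CPM. Clock genes also varied within a diet, *Arntl* spanning 1.35 to 9.24 CPM on Chow and 4.20 to 9.15 CPM on HSD.

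Sequence decides how far the members can be told apart by short reads. The type I genes lie side by side on the plus strand of chromosome 12 in GRCm38, with *Acot2* at chr12:83987861-83993873, *Acot1* at chr12:84009490-84018371, *Acot4* at chr12:84038379-84048601 and *Acot3* at chr12:84052144-84060402. Coding sequences of *Acot1* and *Acot2* were identical at 95.3% of 1236 aligned bases, and those of *Acot3* and *Acot4* at 75.3% of 1255. The stretches of 51 bases shown here, the length of 1 read, are from the GENCODE transcripts and start at coding base 594 of *Acot1* and 717 of *Acot2*. Capitals mark the 2 bases that differ.
Acot1: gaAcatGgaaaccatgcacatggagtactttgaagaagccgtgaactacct
Acot2: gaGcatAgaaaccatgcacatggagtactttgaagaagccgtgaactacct
Over a like stretch from coding base 396 of *Acot3* and 363 of *Acot4*, 3 bases differed and are again in capitals.
Acot3: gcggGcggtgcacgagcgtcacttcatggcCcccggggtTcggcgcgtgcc
Acot4: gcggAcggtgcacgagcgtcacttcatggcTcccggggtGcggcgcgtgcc
Of the 31-base words in the transcripts of a gene, the unit by which kallisto assigns reads, 37.8% of those of *Acot2*, 25.2% of those of *Acot3*, 22.8% of those of *Acot1* and 17.9% of those of *Acot4* also occurred in another gene. *Acot9* shared 28.0% of its words with other Acot genes, chiefly *Acot10*, a single-exon copy whose coding sequence is 97.2% identical. *Acot11* shared 19.3%, chiefly with *Fam151a*, and *Acot8* 10.8%, all outside the family. *Acot12* shared 3.6%, and *Acot7* and *Acot13* shared none. How kallisto divided reads over the shared words cannot be seen in the tables, so the estimated counts of members with large shares are less certain.

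*Acot3* and *Acot4*, neighbouring genes for peroxisomal enzymes, were the 2 of 10 members that rose on HSD, by 6.23-fold and 1.99-fold. Of the 12091 genes tested, edgeR called 3.44% higher and 3.23% lower. *Acot3* encodes a long-chain acyl-CoA thioesterase. Its CPM values on Chow were 0.776, 0.642, 1.01, 4.20 and 0.780 in livers 1 to 5, and on HSD 13.3, 17.8, 4.37 and 4.52 in livers 1 to 4. Every HSD liver lay above every Chow liver on this scale, which 5.84% of all genes tested also showed, although Chow 4 came close to HSD 3 and HSD 4, and HSD 1 and HSD 2 stood well above the rest. On the TPM scale, which corrects for transcript length, HSD 3 (2.74 TPM) lay just below Chow 4 (2.81 TPM), so that the groups met. The estimated counts behind these values ran from 10 to 112 on Chow and from 64.0 to 362 on HSD. The log2 fold change was 2.64 (SE 0.58, edgeR adjusted p = 0.0206). The gene *Gm49366*, which holds 11.5% of the *Acot3* words and was looked up after the sharing was seen, had at most 12.5 estimated counts in any liver. *4732463B04Rik* holds 8.2% of the *Acot3* words and 11.3% of the *Acot4* words, and its counts were not looked up.

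*Acot4* encodes a thioesterase for succinyl-CoA and other dicarboxylic acyl-CoAs. On Chow it stood at 16.7, 19.2, 24.4, 41.8 and 23.7 CPM, and on HSD at 52.5, 63.1, 40.7 and 45.4 CPM. Chow 4 again was the highest of its diet, here above HSD 3, and HSD 1 and HSD 2 were again the highest of all livers. The log2 fold change was 0.99 (SE 0.23, edgeR adjusted p = 0.0252). When each liver was left out in turn, *Acot3* passed the test in 7 of 9 fits, with an adjusted p of 0.0693 without HSD 1 and 0.0602 without HSD 2. *Acot4* passed in 4 of 9, with an adjusted p of 0.0507 without Chow 3, 0.0541 without Chow 5, 0.0750 without HSD 1, 0.0698 without HSD 2 and 0.0552 without HSD 4. Both kept a positive log2 fold change in all of these fits, from 2.22 to 3.62 for *Acot3* and from 0.87 to 1.26 for *Acot4*. Chow 4 set the upper end, since without it the log2 fold change of *Acot3* was 3.62 (edgeR adjusted p = 0.00448) and that of *Acot4* 1.26 (adjusted p = 0.00284).

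Since the pair of genes moved together, their promoters are shown. The 250 bases before each start site are from RefSeq on GRCm38.p6, plus strand, at chr12:84051894-84052143 for *Acot3* and chr12:84038129-84038378 for *Acot4*. Capitals mark an E-box (CACGTG) and, at the end, an inexact direct repeat of AGGTCA with 1 base between the copies, read on the minus strand, which is the kind of element that PPAR-alpha is known to bind.
Acot3 promoter: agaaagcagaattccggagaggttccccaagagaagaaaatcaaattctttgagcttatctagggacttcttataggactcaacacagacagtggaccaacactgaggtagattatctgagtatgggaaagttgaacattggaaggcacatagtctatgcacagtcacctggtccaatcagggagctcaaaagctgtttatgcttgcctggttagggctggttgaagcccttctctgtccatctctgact
Acot4 promoter: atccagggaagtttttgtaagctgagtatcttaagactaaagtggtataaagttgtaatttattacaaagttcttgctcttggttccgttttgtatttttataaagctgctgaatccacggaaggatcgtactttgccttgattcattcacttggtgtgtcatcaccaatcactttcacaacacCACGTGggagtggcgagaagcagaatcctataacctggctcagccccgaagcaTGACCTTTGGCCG
Both strands were searched over 250 bases before to 50 bases after the start. In *Acot4* the E-box began at position -66 and the repeat, with 2 mismatches and holding an exact AGGTCA copy, at -13. The *Acot3* promoter held no E-box and no such repeat, and its AGGTCA copy lay after the start, at 18 or 11 by the promoter entry used. *Acot12* also held a repeat, with 1 mismatch, at -110, and *Acot1*, *Acot2*, *Acot7*, *Acot8* and *Acot9* held none of these motifs. *Acot11* held an E-box in 1 of its 2 promoter entries, at -154. Over 32851 promoters of 27025 genes, AGGTCA occurred in 16.3%, the repeat in 3.9% and the E-box in 7.2%. *Acot13* was not searched.

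**Figure D1:**
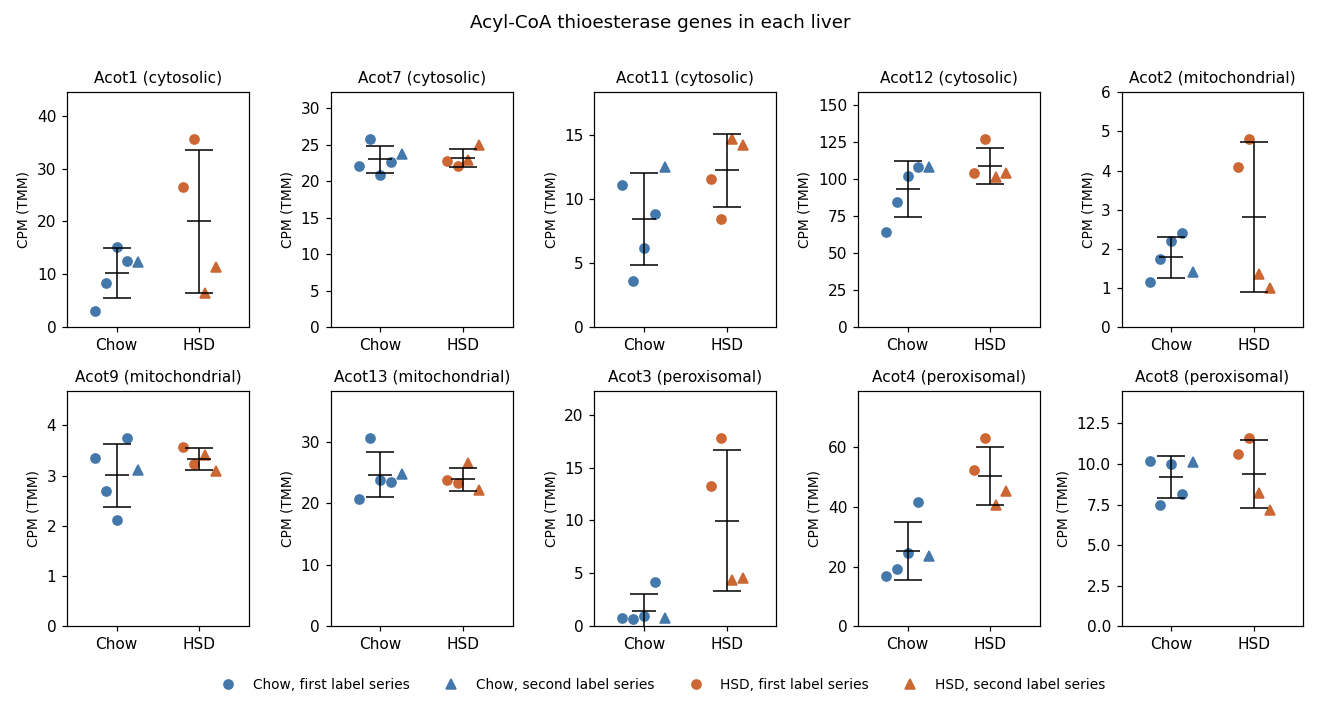
CPM of each member in each liver, with the diet on the horizontal axis and a separate vertical axis from 0 for each gene; circles are livers of the first label series and triangles those of the second, and black bars give the mean and 1 SD of 5 Chow or 4 HSD livers. *Acot3* and *Acot4* sat higher on HSD, *Acot1* and *Acot2* were high in HSD 1 and HSD 2 only, and *Acot7* and *Acot13* covered like ranges on both diets.

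The other type I members, *Acot1* and *Acot2*, did not pass the test. *Acot1* encodes the cytosolic long-chain enzyme. It was measured at 3.04, 8.29, 15.2, 12.6 and 12.3 CPM on Chow and at 26.6, 35.6, 6.48 and 11.3 CPM on HSD. HSD 1 and HSD 2 exceeded every Chow liver, whereas HSD 3 and HSD 4 fell within the Chow range. Its log2 fold change was 0.96 (SE 0.47, edgeR adjusted p = 0.240), near that of *Acot4* but with a larger SE. *Acot2*, the mitochondrial counterpart, showed the same split. On Chow it stood at 1.16, 1.75, 2.21, 2.40 and 1.40 CPM, and on HSD at 4.10, 4.81, 1.37 and 0.991 CPM. The log2 fold change was 0.64 (SE 0.43, adjusted p = 0.413). With reads of *Acot1* and *Acot2* counted as 1 gene, the log2 fold change was 0.92 (edgeR adjusted p = 0.239), and with *Acot1* to *Acot6* as 1 gene it was 1.08 (adjusted p = 0.0391). *Acot5* was listed at 0 in all 9 livers, and *Acot6* had 0.600 to 1.81 CPM on Chow and 0.714 to 1.23 CPM on HSD.

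The HSD livers that were high in *Acot1* to *Acot4* belonged to the first label series. Within that series, 4 Chow against 2 HSD livers, the log2 fold changes were 3.13 for *Acot3* (edgeR adjusted p = 0.0705), 1.17 for *Acot4* (0.158), 1.65 for *Acot1* (0.161) and 1.22 for *Acot2* (0.143). None of these passed the test. The second series had 1 Chow liver and gave no test of its own. With the label series as a covariate over all livers, *Acot3* had an adjusted p of 0.00708 and *Acot4* of 0.0285. The difference of the diet effect between the series, second minus first, was -2.11 on the log2 scale for *Acot1*, -1.50 for *Acot2*, -0.71 for *Acot8*, -0.63 for *Acot3* and -0.31 for *Acot4*. Unadjusted p was 0.0232 for *Acot1*, 0.0375 for *Acot2* and 0.0404 for *Acot8*, and the edgeR adjusted p was 1.0 for every member. Among all 12091 genes, 422 had an unadjusted p under 0.05 in this interaction test and 0 passed after adjustment. This test was added after the values were seen.

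Among the type II members, 0 of 6 passed edgeR's test, with 0 at an unadjusted p under 0.05 and 0 by DESeq2 or limma voom. *Acot12*, a cytosolic acetyl-CoA hydrolase with a START domain, stood at 64.0 to 108 CPM on Chow, with a mean of 93.3 ± 19.0 (SD, n = 5), and at 109 ± 12.1 CPM on HSD (SD, n = 4), and its log2 fold change was 0.22 (SE 0.15, edgeR adjusted p = 0.402). The low end was Chow 1, without which the value was 0.11. *Acot11*, the START domain protein also called Them1, ranged from 3.62 to 12.5 CPM on Chow and from 8.45 to 14.7 CPM on HSD. The groups overlapped widely, with a log2 fold change of 0.55 (SE 0.29, adjusted p = 0.286).

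*Acot7*, an arachidonoyl-CoA and long-chain acyl-CoA hydrolase best known from brain, stood at 20.9 to 25.8 CPM on Chow and 22.1 to 25.0 CPM on HSD. Its log2 fold change of 0.01 had the smallest SE of the family, 0.09. *Acot13*, the mitochondria-associated enzyme also called Them2, had a log2 fold change of -0.05 (SE 0.11), *Acot9*, a mitochondrial enzyme, of 0.15 (SE 0.20) and *Acot8*, the third peroxisomal member, of 0.03 (SE 0.16). *Acot8* differed little between diets but showed the series in HSD, at 10.6 and 11.6 CPM in HSD 1 and HSD 2 and 8.19 and 7.14 CPM in HSD 3 and HSD 4. *Acot10*, the copy of *Acot9*, was listed at 0 in every liver.

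**Figure D2:**
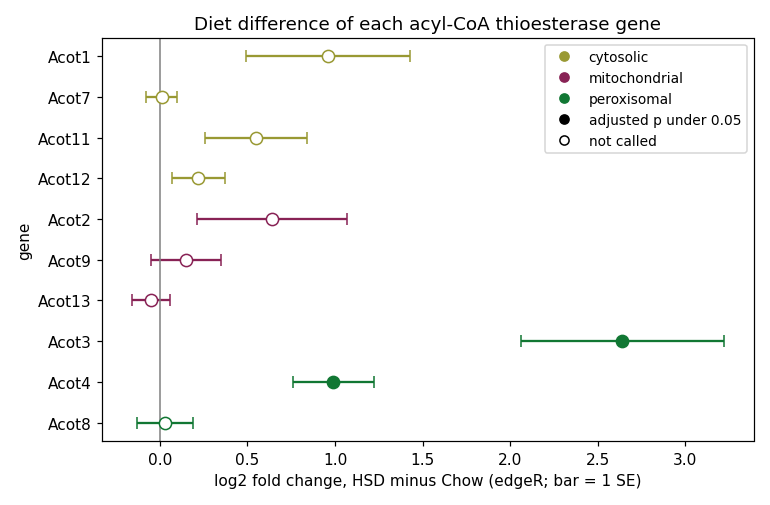
Log2 fold change (HSD minus Chow, edgeR) of each member with bars of 1 SE on the horizontal axis, the genes on the vertical axis, coloured by usual compartment; filled circles passed an adjusted p of 0.05. *Acot3* at 2.64 and *Acot4* at 0.99 passed, and the other 8 members, from -0.05 to 0.96, did not.

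All 10 members passed the filter on low counts and were tested. No member was called lower by edgeR (0 at an unadjusted p under 0.05, and 0 by DESeq2 or limma voom). In *Acot3* alone among the members did every HSD liver exceed every Chow liver. The log2 fold change was above 0 in 9 of 10 members and in 49.6% of all genes, and its median was 0.38 over the members and 0.00 over all genes. These 9 include *Acot7* at 0.01 and *Acot8* at 0.03. The members are not independent of each other, since the type I genes are neighbours with shared sequence. By fold type the median was 0.98 for the 4 type I members (0.64 to 2.64, 2 of 4 higher). It was 0.09 for the 6 type II members (-0.05 to 0.55, 0 of 6). *Acot6*, a type I gene outside the 10 members, was also tested and had a log2 fold change of -0.09 (edgeR adjusted p = 0.913).

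On a length-corrected scale the family was led by enzymes that did not pass the test. On Chow, *Acot13* had the highest mean level (60.5 ± 11.1 TPM, SD, n = 5), then *Acot12* (48.1 ± 12.3), *Acot7* (21.7 ± 2.76), *Acot1* (13.9 ± 6.48) and *Acot8* (11.8 ± 1.03). *Acot4* (5.57 ± 2.33), *Acot11* (2.73 ± 1.07), *Acot9* (2.50 ± 0.605), *Acot2* (1.06 ± 0.371) and *Acot3* (1.04 ± 0.990) followed. Neighbours in this order had separate ranges only between *Acot12* and *Acot7*, between *Acot8* and *Acot4* and between *Acot9* and *Acot2*. On HSD, *Acot13* (64.4 ± 5.53 TPM, SD, n = 4) and *Acot12* (59.0 ± 9.98) still led, and *Acot3* (7.02 ± 4.72) moved from the lowest mean to above *Acot11* (4.62 ± 0.893), *Acot9* (3.08 ± 0.285) and *Acot2* (1.83 ± 1.24), although it exceeded *Acot11* in 2 of 4 livers. *Acot1* (27.6 ± 18.8) stood above *Acot7* (24.5 ± 1.45) by its mean but in 2 of 4 livers. The remaining means were 14.0 ± 3.81 for *Acot8* and 11.8 ± 2.95 for *Acot4*, and the ranges of neighbours were separate only between *Acot7* and *Acot8*.

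**Figure D3:**
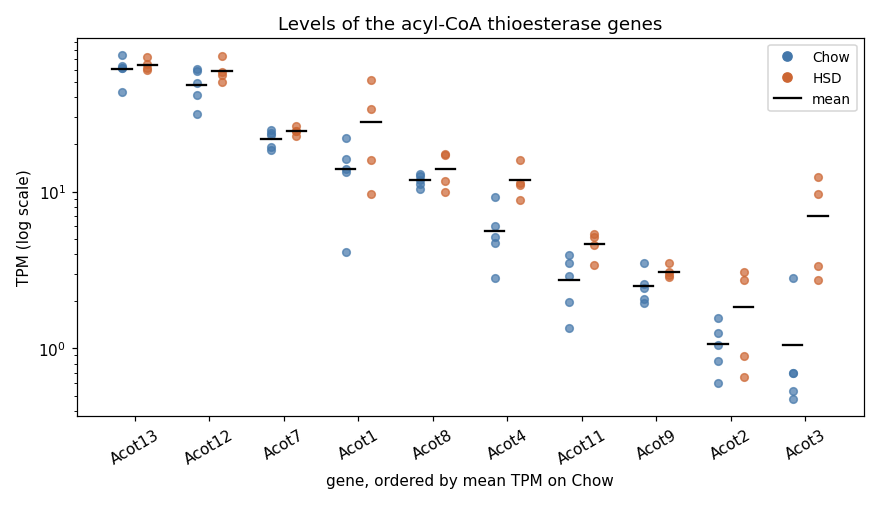
TPM of each member in each liver on a logarithmic vertical axis, with the genes in the order of their Chow mean on the horizontal axis; blue circles are 5 Chow livers, orange circles 4 HSD livers and black lines the means. *Acot13* and *Acot12* were highest on both diets, and *Acot3* rose from a mean of 1.04 to 7.02 TPM.

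Summed over compartments, the peroxisomal members showed the largest ratio between diets and the cytosolic members the largest difference in TPM, described here without a test. The summed level of the peroxisomal members was 14.6, 15.6, 18.3, 23.9 and 19.7 TPM on Chow and 38.5, 45.3, 23.2 and 24.2 TPM on HSD. Only Chow 4 reached the HSD range, and HSD 1 and HSD 2 stood apart. The mean levels were 18.4 and 32.8 TPM (log2 ratio 0.83), with 2 of 3 members called higher. Cytosolic members summed to 56.9 to 103 TPM on Chow and 94.2 to 151 TPM on HSD (means 86.4 and 116, log2 ratio 0.42). The mitochondrial members summed to 46.3 to 77.3 TPM on Chow and 63.0 to 75.7 TPM on HSD (log2 ratio 0.11). No cytosolic or mitochondrial member passed edgeR's test, with 0 at an unadjusted p under 0.05 and 0 by DESeq2 or limma voom. In CPM, which does not correct for length, the log2 ratios were 0.96 (peroxisomal), 0.28 (cytosolic) and 0.03 (mitochondrial). On that scale the difference of the means was also largest for the peroxisomal members. With log2(TPM + 1) at a mean TPM of at least 1, the median log2 fold change of all genes was 0.14. As a share of the family's TPM, the peroxisomal members made up 8.98% to 12.4% on Chow and 12.0% to 17.2% on HSD. The mitochondrial share was 34.4% to 44.6% and 25.6% to 39.2%, and the cytosolic share 46.5% to 54.2% and 48.8% to 57.2%. All of these ranges met or overlapped. The whole family summed to 169 ± 29.6 TPM on Chow (SD, n = 5), with Chow 1 the lowest and Chow 4 the highest at 194, and to 185 to 263 TPM on HSD.

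**Figure D4:**
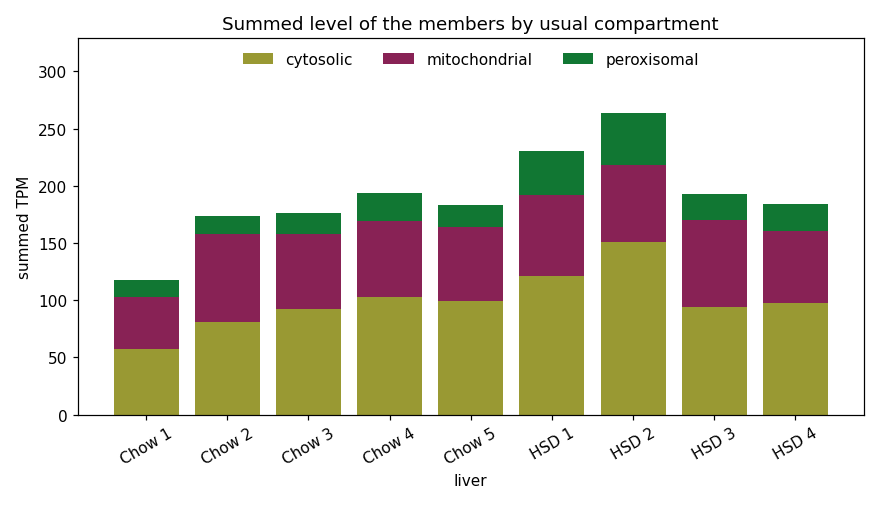
Summed TPM of the members in each liver as stacked bars, coloured by usual compartment; the horizontal axis gives the 5 Chow and 4 HSD livers and the vertical axis starts at 0. The peroxisomal segment was 14.6 to 23.9 TPM on Chow and 23.2 to 45.3 TPM on HSD, and HSD 1 and HSD 2 had the tallest bars.

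Within a diet, *Acot1* to *Acot4* and *Acot12* had positive correlations with each other. Over the 9 livers, deviations of log2 CPM from the diet means had a Pearson correlation of 0.90 between *Acot3* and *Acot4*, 0.82 between *Acot1* and *Acot12*, 0.81 between *Acot1* and *Acot2* and 0.79 between *Acot2* and *Acot3*. Of the 45 pairs of members, 19 had a negative value, the lowest being -0.70, between *Acot7* and *Acot8*, and -0.59, between *Acot11* and *Acot13*. These are descriptions of livers that share scaling, and for *Acot1* to *Acot4* also of genes that share sequence. The label series was not taken out of the deviations. HSD 1 and HSD 2, both of the first series, were the highest HSD livers in *Acot1* to *Acot4*. Among all genes tested, the deviations most like those of *Acot3* were in *Gbp4* (0.939), *Casc3* (0.918) and *Afap1l2* (0.909), and those most like *Acot4* in *Adal* (0.937), *March6* (0.932) and *Cab39* (0.929). None of these genes passed the diet test. They were picked as the highest correlations among all genes tested, over only 9 livers, and whether they exceed chance was not tested.

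The enzymes that make the substrates of the thioesterases were called in both directions. Of 18 acyl-CoA synthetases, which join fatty acids to CoA, 16 were tested, with 1 higher, 4 lower and a median log2 fold change of -0.24. DESeq2 called 3 higher and 5 lower, and limma voom 1 and 4. *Acsl5*, which supplies long-chain acyl-CoA, was higher at 0.72 (edgeR adjusted p = 0.0497). This call was lost with DESeq2's size factors, with the label series as a covariate and in the first series only. It was also lost with log2(TPM + 1) over all genes and at an adjusted p under 0.01. Leaving out Chow 3, Chow 5, HSD 1, HSD 2, HSD 3 or HSD 4 lost it as well. The medium-chain synthetases *Acsm1* (-0.60, adjusted p = 0.00473) and *Acsm5* (-0.46) and the family members *Acsf2* (-0.46) and *Acsf3* (-0.42), the malonyl-CoA synthetase of mitochondria, were lower. The 4 lower calls became 2 with library totals, with either pseudocount at a mean TPM of at least 1, with the replicate block and with the label series. They became 1 with log2(TPM + 1) over all genes and at an adjusted p under 0.01, and 0 in the first series only. With a liver left out, 1 to 4 were called lower. Of 15 other acyl-CoA and CoA hydrolases, 11 were tested. *Nudt7*, a peroxisomal CoA diphosphatase, was lower (-0.37, adjusted p = 0.0365), 552 to 612 CPM on HSD against 708 to 828 CPM on Chow. None was higher by edgeR (1 at an unadjusted p under 0.05) or by DESeq2 or limma voom, and the median was -0.09. The call of *Nudt7* held without Chow 1 but was lost when any other liver was left out. It was also lost with library totals, without the filter on low counts, on every TPM scale and with the replicate block. The same held with the label series as a covariate, in the first series only and at an adjusted p under 0.01.

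CoA synthesis was covered by 9 tested genes with a median of 0.04, of which 0 were called by edgeR (2 at an unadjusted p under 0.05). *Vnn1*, which releases the CoA precursor pantothenate, was called higher by DESeq2 and by limma voom and had an edgeR log2 fold change of 1.21 (adjusted p = 0.0519).

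Other known PPAR-alpha targets moved in both directions. Of 33 tested, 2 were higher, 3 lower and 28 not called, with a median log2 fold change of 0.03. *Pdk4*, the kinase that blocks pyruvate dehydrogenase, rose by 1.82 on the log2 scale (edgeR adjusted p = 0.00167), and *Crat*, the carnitine acetyltransferase of mitochondria and peroxisomes, by 1.20 (adjusted p = 0.0292). *Acaa1a*, a thiolase of peroxisomal beta-oxidation, was lower at -0.58 on the log2 scale (edgeR adjusted p = 0.0168), as was *Creb3l3*, a hepatic transcription factor, at -0.58 (0.0314). By edgeR over all 9 livers, the peroxisomal thioesterase genes *Acot3* and *Acot4* and the peroxisomal thiolase gene *Acaa1a* were called in opposite directions. The third peroxisomal member, *Acot8* (0.03), was not called, nor were *Acaa1b* (-0.39) and *Ehhadh* (0.05) of this list. *Crat* ranged from 22.6 to 46.2 CPM on Chow and from 31.9 to 99.9 CPM on HSD, so that the groups overlapped. Calls of this list depended on the fit in both directions. With the replicate block and in the first series only, 1 gene was called higher. The same number was called with log2(TPM + 1) over all genes and at an adjusted p under 0.01. Without Chow 2, Chow 5, HSD 1, HSD 2 or HSD 4 it was also 1, and with DESeq2 it was 3. No gene of this list was called lower on any TPM scale, with the replicate block or in the first series only. The same held at an adjusted p under 0.01 and without HSD 1, HSD 3 or HSD 4. *Cyp4a14*, a fatty acid omega-hydroxylase, split the HSD livers as *Acot1* did, at 90.5 and 139 CPM in HSD 1 and HSD 2 and 8.05 and 8.88 CPM in HSD 3 and HSD 4. Chow 3 held 60.8 CPM and the other Chow livers 3.27 to 6.00 CPM, and the gene was not called (adjusted p = 0.257).

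State and cell markers were read beside these results. Clock genes had 0 of 16 called by edgeR (3 at an unadjusted p under 0.05, 2 called by DESeq2 and 0 by limma voom). A clock gene score was taken as the log2 CPM of *Arntl* minus that of *Dbp*. With this score as a covariate, *Acot3* had a log2 fold change of 2.96 (edgeR adjusted p = 0.0198) and *Acot4* of 1.11 (adjusted p = 0.0182). Without Chow 1, the liver with the high *Saa2* level, the values were 2.47 (adjusted p = 0.0287) and 0.87 (adjusted p = 0.0291). Of 16 acute phase genes, 1 was lower (*Itih3*, 769 to 2250 CPM on Chow and 508 to 587 CPM on HSD) and 10 had an unadjusted p under 0.05, all of them with a lower level on HSD. Their median log2 fold change was -1.24, and -0.44 without Chow 1, where 2 were called lower. They summed to 20000 to 107000 CPM on Chow and 20900 to 23300 CPM on HSD. Kupffer cell and macrophage markers summed to 153 to 356 CPM on Chow and 97.5 to 199 CPM on HSD, with 0 of 8 called by edgeR (4 at an unadjusted p under 0.05, 0 by DESeq2 or limma voom), and *Clec4f* ranged from 53.2 to 110 and from 32.4 to 60.3 CPM. In bulk liver, fewer cells of a type and less RNA per cell cannot be told apart. Hepatocyte markers summed to 68100 to 133000 CPM on Chow and 97800 to 130000 CPM on HSD, most of it *Alb*. By edgeR, 2 of 9 were lower on HSD (*Serpina1a*, log2 fold change -0.38, adjusted p = 0.0475, and *Fah*, -0.45, adjusted p = 0.0197). Red blood cell markers summed to 182 to 459 CPM on Chow and 115 to 158 CPM on HSD, without overlap, and 1 of 5 tested was called lower. The part of these marker shifts in the *Acot3* and *Acot4* differences was not tested.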

How the data were processed

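Poly-A RNA of 9 livers was sequenced in pairs of 51-base reads and quantified with kallisto on GRCm38 (the submitters' processing notes give no version). The authors deposited estimated counts per gene symbol, unscaled, and TPM values, which the authors scaled for transcript length and library size. The sources used here do not give how transcripts were summed to symbols. Of the values above 0, 34.1% were whole (tolerance 1e-06), and 99.1% of these were even, so halved counts were also tried. The tables held 0 columns of other samples.

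Samples were grouped by their diet label. Each is a separate mouse, so p-values measure the spread between mice. Estimated counts were rounded. Genes passed filterByExpr at a minimum count of 10 and a minimum total of 15. After TMM scaling they were tested (12091 genes) with edgeR 4.0.16 in R 4.3.3 (quasi-likelihood, diet as the single factor, 7 residual degrees of freedom, common BCV 0.187). Calls required a Benjamini-Hochberg adjusted p under 0.05 over all genes tested. The SE of a log2 fold change was derived as its absolute value over the square root of the F statistic of the test. Log2 CPM used a prior count of 2. At 12769668 to 25913869 counts per liver, *Acot3* rested on as few as 10 counts. The scripts were tested on simulated data.

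Alternatives were DESeq2 1.42.0 and its size factors, library totals, limma 3.58.1 (voom, and log2 TPM with pseudocounts of 1 and 0.1, with and without a mean TPM minimum of 1), no filter on low counts, halved counts, a replicate block, label series, a clock covariate, each liver left out, summed paralogs and an adjusted p under 0.01. An interaction of diet with label series was added after the data were seen. Shared 31-base words were counted over GENCODE M21 transcripts, and promoters came from RefSeq tables.

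The members, lists, tests and alternatives were chosen with earlier results of these data known. Named were all members with *Acot5*, *Acot6* and *Acot10*, up to 4 called genes per pathway list by size of change, the 3 genes most like each called member, *Arntl*, *Dbp* and *Saa2*, and leading markers. A gene named by this rule is not reported here. *Cyp4a14*, *Vnn1*, *Gm49366*, *Fam151a* and single markers were named after their values were seen, and *4732463B04Rik* for its shared words.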

Additional observations from a re-analysis of the deposited data

Results flagged for a closer look

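Groups of 4 or 5 livers were screened for a single liver far from the others of its diet, by the gap to its nearest neighbour over the range of the group. In all, 3 of 30 groups were marked, where chance marks about 1 in 20. In *Acot3*, Chow 4 exceeded the mean of its 4 diet mates by 2.26 in log2 CPM (gap over range 0.771), and the same liver had the highest *Acot4* level on Chow. In *Acot12*, HSD 2 exceeded the mean of its 3 diet mates by 0.30 in log2 CPM (gap over range 0.858). In the summed level of all members, Chow 1 differed from the mean of its diet mates by -0.62 in log2 TPM (gap over range 0.779). Chow 1 is the liver with 10100 CPM of *Saa2*, and whether the 2 values are linked was not tested.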

How the results depend on the processing

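Over 23 alternative fits *Acot3* had a log2 fold change of 1.86 to 3.62 and passed the test in 17, and *Acot4* had 0.87 to 1.26 and passed in 14. *Acot1* and *Acot2* passed in 0 of 23. The sum of *Acot1* to *Acot6* passed, but it holds the counts of *Acot3* and *Acot4* and so is no test of *Acot1* or *Acot2*. The 2 members called higher became 0 with log2(TPM + 1) over all genes, with the replicate block, with the first label series only and at an adjusted p under 0.01, and 0 to 2 with a liver left out. No alternative called a member lower. The 807 genes called in all became 1330 with DESeq2, 294 with log2(TPM + 1) over all genes, 425 with the replicate block, 34 with the first label series only, 209 at an adjusted p under 0.01 and 302 to 968 with a liver left out. The 11 pathway genes called became 7 with either pseudocount at a mean TPM of at least 1, 2 over all genes on the TPM scale, 5 with the replicate block, 6 with the label series as a covariate, 1 with the first series only, 2 at an adjusted p under 0.01 and 3 to 14 with a liver left out. The cause was not tested, except that the first series and the fits with a liver left out held fewer livers and that the stricter threshold can only call fewer genes.

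Scaling moved the balance of calls, from 416 higher and 391 lower to 569 and 254 with library totals (median log2 fold change of all genes 0.07), 475 and 101 with log2(TPM + 1) (median 0.14), 448 and 101 with log2(TPM + 0.1) (median 0.16) and 243 and 51 over all genes (median 0.06). Small differences changed sign with the setting. *Acot13*, at -0.05, became 0.02 with library totals, 0.10, 0.11 and 0.10 on the TPM scales and -0.11 to 0.04 with a liver left out. *Acot7* became -0.01 with the label series as a covariate, -0.03 in the first series and -0.03 to 0.06 with a liver left out, and *Acot8* -0.03 with the clock covariate and -0.09 to 0.14 with a liver left out. *Acot6*, at -0.09, became 0.02 with limma voom and 0.03 with log2(TPM + 1) over all genes. It became 0.10 with the label series, 0.03 in the first series and -0.25 to 0.21 with a liver left out. The sum of *Acot1* to *Acot6*, at 1.08, is no estimate for *Acot6* alone, since it holds the counts of *Acot3* and *Acot4*.

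Replicate numbers do not pair the livers. The correlations of same-numbered deviations were 0.0457, 0.0661, -0.0609 and 0.0447. With the replicate block all the same, *Acot3* had a log2 fold change of 2.53 (edgeR adjusted p = 0.0808) and *Acot4* of 1.04 (adjusted p = 0.0591).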
